A study of Mus musculus with 28 samples.

Results

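Tet1, Tet2 and Tet3, the genes of the mouse TET enzymes, were examined as places in the genome that themselves carry 5-methylcytosine (5mC) and 5-hydroxymethylcytosine (5hmC). The members were all called peaks that overlapped 1 of 3 mm9 windows: a 130 kb window around Tet1 on chromosome 10 (62250001 to 62380000), a 120 kb window around Tet2 on chromosome 3 (133110001 to 133230000) and a 140 kb window around Tet3 on chromosome 6 (83290001 to 83430000). These windows held 757 of the 1489550 peaks of the 11 lists, of which 179 lay at Tet1, 143 at Tet2 and 435 at Tet3. Of the 757 peaks, 560 were 5hmC peaks and 197 were 5mC peaks. No gene annotation of mm9 was used here, so exons, introns and untranslated regions were not placed, and each window can hold DNA beside its gene. In RefSeq the nearest protein-coding genes are Ccar1 and Slc25a16 for Tet1 (ENSMUSG00000047146.17), Ppa2 and Cxxc4 for Tet2 (ENSMUSG00000040943.12), and Bola3 and Dguok for Tet3 (ENSMUSG00000034832.15).

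TET proteins are dioxygenases that oxidise 5mC to 5hmC and to further oxidised bases, and both marks in mammalian DNA sit mainly at CG dinucleotides. Tet1 and Tet3 carry a CXXC domain that binds unmethylated CG, whereas Tet2 lacks it, and the neighbouring gene Cxxc4 (also called Idax) encodes a related domain. In blood, TET2 is a frequent target of loss-of-function mutations in myeloid and lymphoid disease.

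The DNA was that of bone marrow cells labelled LK from C57BL/6 mice of 6 to 10 weeks. LK commonly denotes lineage-negative, Kit-positive progenitors, although the labels do not spell it out. The hMe-Seal assay, which tags 5hmC chemically and pulls it down, was run on 2 libraries each of mice lacking Tet1 and Tet2 (DKO), mice lacking Tet2 (Tet2KO) and wild-type mice (WT). 5mC was captured with an antibody to methylated DNA (MeDIP-seq) in 2 DKO libraries, 1 Tet2KO library and 2 WT libraries. Which parts of Tet1 and Tet2 the knockout alleles remove, and in which cells, is not given in the sources used here. Nor do the labels say whether a group's libraries came from different animals, and p-values here therefore reflect library-to-library spread that may be technical. Peak lists hold no expression values or marker genes against which the cell type could be checked. Each list held between 120243 and 147934 peaks, and its read depth is unknown.

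The RefSeq promoter sequences of the 3 genes are shown because CG is the dinucleotide on which both marks mainly sit. Each runs 5′ to 3′ along the gene, from 250 bases before its start to 50 bases after it, with every CG in capitals. All 3 genes lie on the minus strand. In GRCm38.p6 the sequences are at chr10:62887275-62887574 (Tet1), chr3:133544341-133544640 (Tet2) and chr6:83441629-83441928 (Tet3). The deposited peaks are in mm9, so peaks were not placed against these sequences.
Tet1: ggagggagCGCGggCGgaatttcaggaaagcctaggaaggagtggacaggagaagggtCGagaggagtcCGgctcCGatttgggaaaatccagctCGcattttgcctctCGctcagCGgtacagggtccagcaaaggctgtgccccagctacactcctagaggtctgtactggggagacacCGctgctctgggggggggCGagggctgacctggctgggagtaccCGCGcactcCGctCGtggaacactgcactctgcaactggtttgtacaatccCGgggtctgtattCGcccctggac
Tet2: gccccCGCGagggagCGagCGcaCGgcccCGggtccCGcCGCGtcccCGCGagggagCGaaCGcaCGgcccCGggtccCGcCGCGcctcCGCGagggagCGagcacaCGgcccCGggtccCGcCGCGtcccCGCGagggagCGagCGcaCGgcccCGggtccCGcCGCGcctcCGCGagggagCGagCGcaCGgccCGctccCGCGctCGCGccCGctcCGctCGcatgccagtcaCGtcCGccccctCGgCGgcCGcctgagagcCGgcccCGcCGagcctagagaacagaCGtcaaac
Tet3: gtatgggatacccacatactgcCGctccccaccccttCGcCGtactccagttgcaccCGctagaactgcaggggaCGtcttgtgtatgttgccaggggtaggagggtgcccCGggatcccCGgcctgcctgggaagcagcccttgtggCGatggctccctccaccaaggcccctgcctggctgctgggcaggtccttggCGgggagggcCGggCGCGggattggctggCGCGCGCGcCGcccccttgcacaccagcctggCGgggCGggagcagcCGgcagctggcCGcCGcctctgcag

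The Tet2 promoter held 57 CG dinucleotides in its 300 bases, more than 99.8% of 32851 RefSeq mouse promoters of this length. The Tet3 promoter held 22, more than 76.9% of them, and the Tet1 promoter held 17, more than 68.6%. The median promoter held 7, and 94.6% held at least 1. CG reads the same on both strands, so each was counted once.

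Tet3 was by far the most densely hydroxymethylated of the 3 loci. 5hmC peaks covered 39.8% and 36.6% of the Tet3 window in DKO, 35.5% and 35.7% in Tet2KO, and 40.2% and 39.97% in WT. At Tet1, 5hmC peaks covered 11.2% and 11.9% of the window in DKO, 10.9% and 10.8% in Tet2KO, and 12.02% and 10.7% in WT. At Tet2 the values were 9.92% and 7.72% in DKO, 12.1% and 5.92% in Tet2KO, and 11.4% and 10.8% in WT. The Tet3 window thus lay above both others in every library, with no overlap. Tet1 and Tet2 did not differ beyond their spread in Tet2KO or WT, while in DKO both Tet1 libraries lay above both Tet2 libraries. The values are the share of a window inside called peaks, which allows for the windows' different lengths. They still depend on how much DNA beside its gene a window takes in, and they are not the share of modified cytosines.

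**Figure D1:**
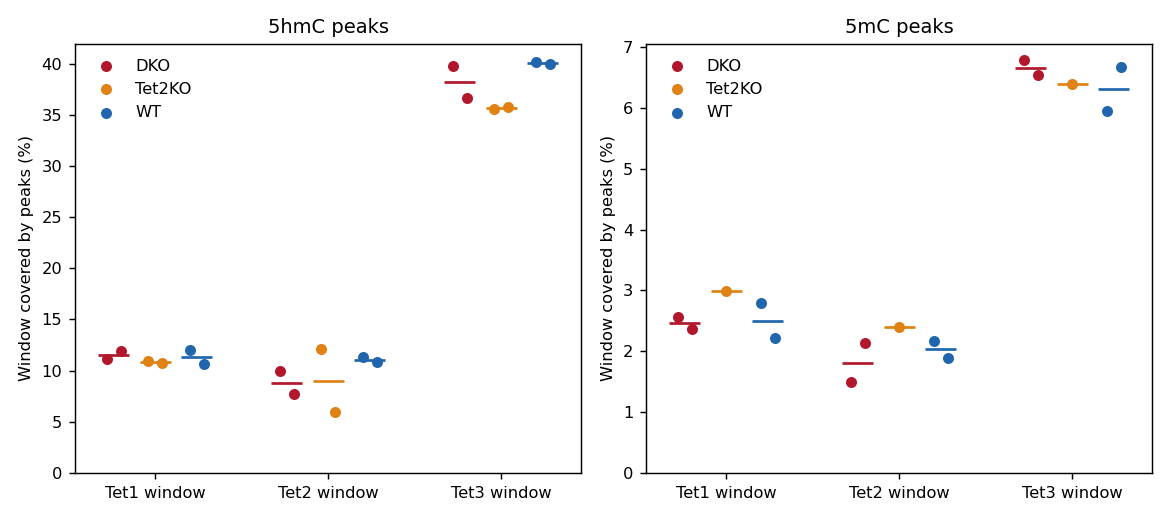
Share of each window covered by called peaks (y axis, percent) in every library, for 5hmC (left) and 5mC (right), with DKO, Tet2KO and WT side by side at each locus. Points are libraries and bars are group means; in 5hmC the Tet3 points lie between 35.5% and 40.2%, above every Tet1 and Tet2 point, and the 2 Tet2KO points at Tet2 lie as far apart as 12.1% and 5.92%.

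Set beside 13476 bins of 100 kb with a 5hmC peak in at least 2 libraries, the Tet3 window was covered more densely than 98.5% of bins in DKO, 98.6% in Tet2KO and 98.5% in WT. The Tet1 window exceeded 75.2% of bins in DKO, 75.8% in Tet2KO and 74.1% in WT. The Tet2 window exceeded 68.0% of bins in DKO, 70.4% in Tet2KO and 73.5% in WT. The median bin was covered to 4.48% in DKO, 4.29% in Tet2KO and 4.37% in WT, so all 3 loci lay above the typical bin in each genotype.

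The Tet3 window had more peaks and wider ones. It held 46 and 59 5hmC peaks in DKO, 51 and 57 in Tet2KO, and 51 and 56 in WT, against 19 and 24, 22 and 23, and 22 and 20 peaks in the same libraries at Tet1, and 17 and 17, 24 and 13, and 19 and 20 at Tet2. The median width of its peaks averaged 855 bp ± 257 in DKO, 841 bp ± 3.54 in Tet2KO and 891 bp ± 158 in WT (SD, n = 2 each). At Tet1 the median width averaged 579 bp in DKO, 567 bp in Tet2KO and 602 bp in WT, and at Tet2 it averaged 581 bp in DKO, 567 bp in Tet2KO and 632 bp in WT. In 5hmC each library's median width was larger at Tet3 than at Tet1 or Tet2.

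The longest dense run of 5hmC peaks in the Tet3 window lay in its later part. An earlier bin of 10 kb, 83310001 to 83320000, was dense as well, at between 28.6% and 67.7% over the 6 libraries. All 7 consecutive bins of 10 kb between 83340001 and 83410000 were covered in every library, to between 22.3% and 79.8%. Coverage of the bin from 83410001 to 83420000 was 14.7% and 1.29% in DKO, 1.89% and 5.54% in Tet2KO, and 3.57% and 8.77% in WT, and thus ended this stretch in all genotypes. The Tet1 window was densest in the 20 kb between 62310001 and 62330000, where each 10 kb bin was covered to between 20.7% and 37.0%. In the Tet2 window 5hmC peaks lay mainly above 133170000, and its first 10 kb bin held no 5hmC peak in any library.

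**Figure D2:**
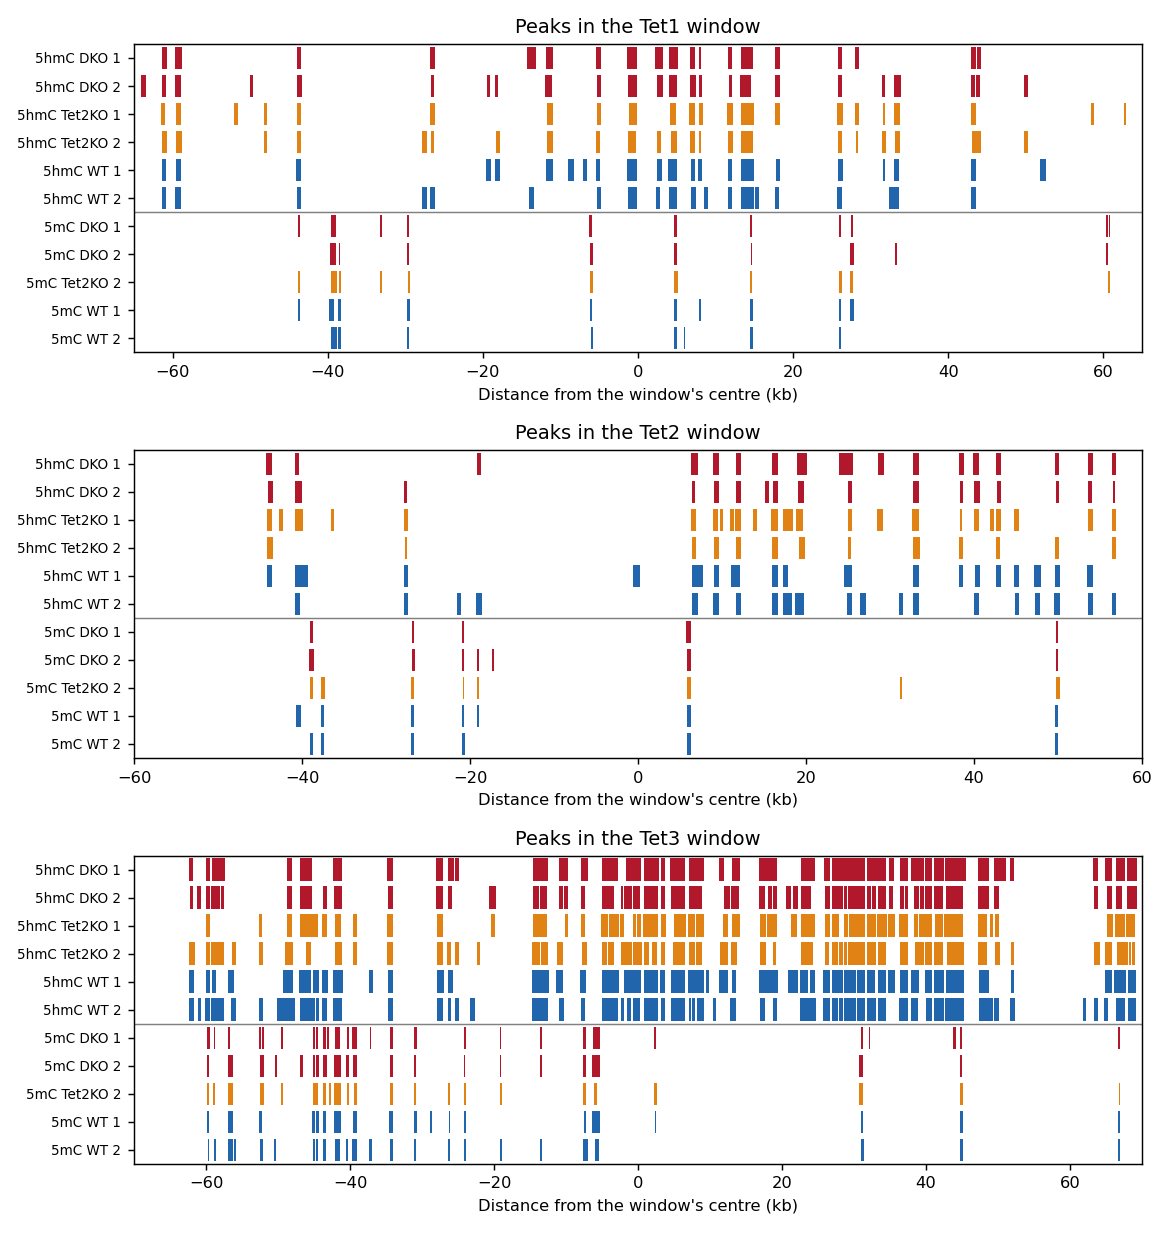
Every called peak of the 3 windows, drawn to scale by its distance from the window's centre (x axis, kb), with 1 row per library and DKO above Tet2KO above WT in each assay. The Tet3 panel shows 46 to 59 5hmC peaks per library against 19 to 24 at Tet1, and its 5mC peaks crowd in the part left of the centre.

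The most strongly called 5hmC peak of the 3 windows lay in a Tet3 region at chr6:83401117-83405579, which was 4463 bp wide and recurred in all 6 libraries. Its highest peak score, the authors' own measure of how far a peak stood out within its library, was 1316 and 1301 in DKO, 1211 and 1327 in Tet2KO, and 1195 and 1120 in WT. Between 0.157% and 0.233% of the peaks of a list scored as high or higher. The widest region at Tet3 was chr6:83386915-83391587, at 4673 bp, of which peaks covered 4511 and 4214 bp in DKO, 3814 and 4302 bp in Tet2KO, and 4424 and 4389 bp in WT. Next in width among the regions found in all 6 libraries came chr6:83426152-83429273, at 3122 bp. At the widest region both Tet2KO libraries were covered over a shorter length than both WT libraries, and the DKO libraries overlapped both groups. At the narrower one the genotypes overlapped.

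At Tet1 the widest 5hmC region was chr10:62328201-62329951, at 1751 bp, and it too had a peak in all 6 libraries. Its peaks scored 185 and 259 in DKO, 320 and 492 in Tet2KO, and 261 and 224 in WT. Both Tet2KO scores were the highest of the 6, but scores of different libraries may not share a scale and were not compared by a test. Other wide Tet1 regions present in all 6 libraries were chr10:62357932-62359265 and chr10:62313605-62314922. At Tet2 the widest region was chr3:133129156-133130735, at 1580 bp, of which 468 and 800 bp were covered in DKO, 955 and 0 bp in Tet2KO, and 1557 and 561 bp in WT. The widest Tet2 region with a peak in all 6 libraries was chr3:133193970-133195534, at 1565 bp.

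Peaks of the 6 libraries were merged into regions wherever they overlapped, to ask how often a site was called again. Tet3 had 53 such 5hmC regions, and 29 of them (54.7%) recurred in all 6 libraries while 7 (13.2%) were called in a single library. Tet1 had 36 regions, with 11 (30.6%) in all 6 libraries and 11 (30.6%) in a single one. Tet2 had 32 regions, with 6 (18.8%) in all 6 and 10 (31.25%) in a single one. Over the genome 29.9% of 206417 regions recurred in all 6 libraries and 25.8% were in a single one. The share found in all libraries was therefore above the genome's at Tet3, close to it at Tet1 and below it at Tet2, as a description without a test.

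**Figure D3:**
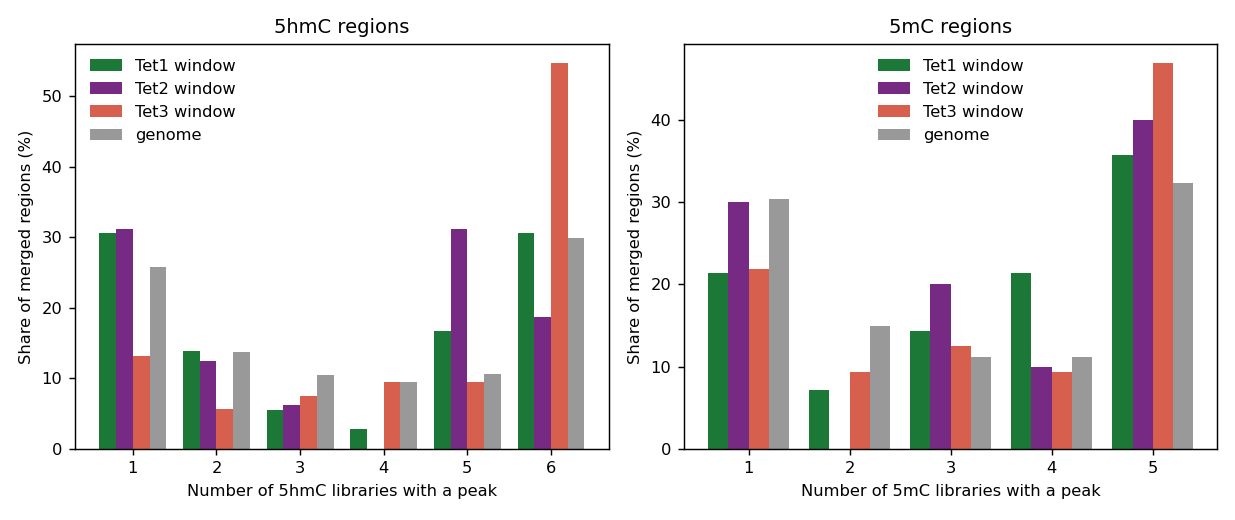
Share of merged regions (y axis, percent) by the number of libraries with a peak in the region (x axis), for 5hmC (left, 6 libraries) and 5mC (right, 5 libraries), at Tet1, Tet2, Tet3 and over the genome. At Tet3 54.7% of 5hmC regions had a peak in all 6 libraries, against 29.9% over the genome; at Tet2 18.8% had.

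The genotypes were then compared over whole windows, to ask whether the marks at these genes differed where the enzymes were missing. No window passed the test for 5hmC coverage in any comparison of genotypes. The test was limma on the arcsine of the square root of the covered fraction, fitted with 13476 bins of 100 kb and adjusted over all 13479 rows by the Benjamini-Hochberg method at a threshold of 0.05. It called 0 rows (0%) in each of the 3 comparisons, windows included, while unadjusted p was under 0.05 in 1738 rows (12.9%) between Tet2KO and WT, 1111 (8.24%) between DKO and WT and 1139 (8.45%) between DKO and Tet2KO. None of the 3 windows was among them. The same test run on DKO and WT 5mC libraries called 0 of 20406 rows (0%), with 940 (4.61%) at an unadjusted p under 0.05.

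In percentage points the largest window difference was at Tet3, where 5hmC coverage averaged 35.6% ± 0.143 in Tet2KO and 40.1% ± 0.164 in WT (SD, n = 2 each). Both Tet2KO libraries lay below both WT libraries, with a mean difference of -4.47 percentage points (limma adjusted p = 0.425). Relative to its WT level the Tet3 window differed by -11.2% in Tet2KO, and the whole lists lay in the same direction, at -9.40%, with 102 and 98.5 Mb in Tet2KO against 112 and 109 Mb in WT. The part of these list totals in the Tet3 difference was not tested. With peaks of an authors' score of at least 100 alone, the difference was -0.0871 points. The Tet3 window in DKO averaged 38.2% ± 2.22, with a difference of -1.89 points from WT (adjusted p = 0.811) and of 2.58 points from Tet2KO (adjusted p = 0.776), all from limma. The difference between DKO and WT turned round to 0.685 points with a minimum score of 100 and 0.324 points with 200. Fewer cells with a mark at a site and less mark per cell cannot be told apart in these bulk samples.

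At Tet2, the gene targeted in both knockouts, the window averaged 8.82% ± 1.56 in DKO, 9.01% ± 4.37 in Tet2KO and 11.1% ± 0.385 in WT (SD, n = 2 each). Both DKO libraries lay below both WT libraries, with a mean difference of -2.26 points (limma adjusted p = 0.793). Relative to WT this was -20.4%, where the whole lists covered 108 Mb in DKO and 110.4 Mb in WT on average, a change of -2.23%. With a minimum score of 100 the Tet2 difference was -0.103 points. The 2 Tet2KO libraries lay on either side of the WT range, with a mean difference of -2.07 points (limma adjusted p = 0.679). Without the first Tet2KO library that difference was -5.16 points, and without the second it turned round to 1.02 points higher in Tet2KO. It also turned round, to 1.45 points, with a minimum score of 100. The difference between DKO and Tet2KO was -0.186 points (limma adjusted p = 1).

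At Tet1, the gene targeted in DKO alone, the window averaged 11.5% ± 0.505 in DKO, 10.8% ± 0.101 in Tet2KO and 11.3% ± 0.968 in WT (SD, n = 2 each). The genotypes overlapped except that both DKO libraries were above both Tet2KO libraries, by 0.679 points on average (limma adjusted p = 0.907). With a minimum score of 100 that difference was -0.0600 points and with 200 it was -0.712 points. DKO differed from WT by 0.180 points, higher in DKO (limma adjusted p = 0.991), and turned round to -0.329 points in windows shortened by 10 kb at both ends. The difference between Tet2KO and WT was -0.499 points (limma adjusted p = 0.890), which turned round to 1.52 points with a minimum score of 100 and 0.897 points with 200.

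Within the windows, 36 of the 74281 bins of 10 kb tested for 5hmC lay in the 3 loci, and 0 of them were called in any comparison, nor was any bin of the genome (0%). Unadjusted limma p was under 0.05 in 2 window bins (5.56%) between Tet2KO and WT, against 10.5% of all bins, in 1 (2.78%) between DKO and WT, against 9.61%, and in 1 (2.78%) between DKO and Tet2KO, against 7.33%. These 5hmC shares lay below the genome's but rest on 1 or 2 of 36 bins each. In 5mC, between DKO and WT, the window share was above the genome's, at 17.4% against 6.8%. It rests on 4 of 23 bins, of which 2 were lower and 2 higher in DKO.

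The bin with the lowest p against WT at Tet3 was the same in both knockouts, chr6:83310001-83320000. 5hmC peaks covered 35.1% and 38.3% of it in DKO, 48.6% and 28.6% in Tet2KO, and 59.8% and 67.7% in WT. All 4 knockout libraries lay below both WT libraries. The mean difference was -27.1 points in DKO (limma adjusted p = 0.351) and -25.1 points in Tet2KO (limma adjusted p = 0.342), and both comparisons use the same WT libraries. With a minimum score of 100 the differences were -16.8 points in DKO and -15.5 points in Tet2KO, and with a minimum of 200 they were -5.13 and -4.31 points. Without the second Tet2KO library the Tet2KO difference was -15.2 points.

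The highest-scoring 5hmC peak of that bin was present in every library at nearly the same place. It ran along chr6:83317684-83318843 and chr6:83317770-83318832 in DKO, chr6:83317854-83318792 and chr6:83317876-83318839 in Tet2KO, and chr6:83317680-83319041 and chr6:83317655-83318846 in WT. Its scores were 388 and 493 in DKO, 595 and 356 in Tet2KO, and 400.11 and 590.38 in WT, and overlapped between genotypes. Both WT libraries also had a low peak, scoring 56.0 and 67.6, between 83314848 and 83315709. Neither DKO library nor the second Tet2KO library had a peak there, and in the first Tet2KO library the neighbouring peak reached to 83315593. The bin also holds the strongest 5mC peaks of the Tet3 window.

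In 5mC the bin went the other way between DKO and WT. 5mC peaks covered 24.7% and 29.0% of chr6:83310001-83320000 in DKO, 28.3% in the lone Tet2KO library, and 21.4% and 18.3% in WT. Both DKO libraries and the Tet2KO library lay above both WT libraries, and the DKO mean was 7.01 points above the WT mean (limma adjusted p = 0.723). No merged 5mC region of the bin had a peak in both DKO libraries and neither WT library, or the reverse. Neither mark's difference in this bin passed the adjusted threshold, and the bin was singled out by its low p.

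**Figure D4:**
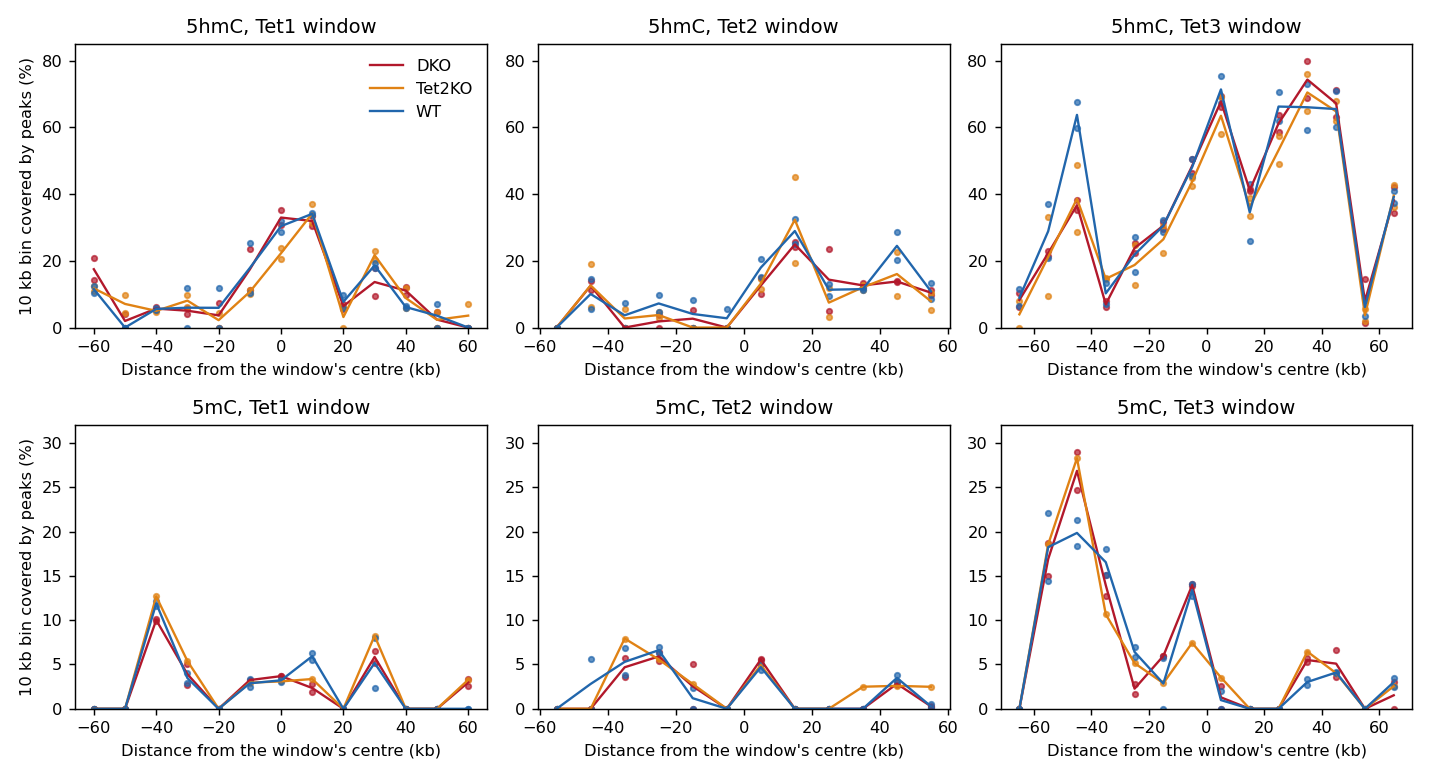
Share of each 10 kb bin covered by peaks (y axis, percent) along the 3 windows (x axis, distance from the window's centre in kb), for 5hmC (top) and 5mC (bottom). Points are libraries and lines are means of DKO, Tet2KO and WT; at -45 kb in the Tet3 window the 5hmC values are 35.1% and 38.3% in DKO, 48.6% and 28.6% in Tet2KO, and 59.8% and 67.7% in WT.

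Other bins with the lowest p of their window and comparison also failed the adjusted threshold. At chr10:62310001-62320000 in the Tet1 window, 5hmC peaks covered 35.2% and 30.8% in DKO and 20.7% and 23.9% in Tet2KO, with WT at 32.03% and 28.8%. DKO was 10.7 points above Tet2KO there (limma adjusted p = 0.528). At chr10:62260001-62270000 the coverage was 9.68% and 4.49% in Tet2KO and 0% in both WT libraries, a difference of 7.09 points (limma adjusted p = 0.3795), with DKO at 0% and 3.95%. In the Tet2 window the bin at chr3:133210001-133220000 had a coverage of 13.8% and 13.8% in DKO, 22.5% and 9.56% in Tet2KO, and 28.7% and 20.3% in WT. The difference, Tet2KO minus WT, was -8.45 points in it (limma adjusted p = 0.707), with overlap between the groups. DKO minus WT was -10.7 points in the same bin (limma adjusted p = 0.710), with both DKO libraries below both WT libraries. The bin holds the regions chr3:133214755-133215360 and chr3:133217197-133217919 described below. The Tet1 bin chr10:62250001-62260000 was covered to 14.1% and 20.8% in DKO and 10.5% and 12.6% in WT, 5.97 points higher in DKO (limma adjusted p = 0.720). With peaks scoring at least 200 its difference was 7.91 points (limma adjusted p = 0.0417), and with a minimum of 100 it turned round to -0.975 points.

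Few regions separated the genotypes outright, that is, had a peak in both libraries of 1 genotype and in neither of the other. Between DKO and WT, 4 of the 121 5hmC regions of the windows separated (3.31%), against 7.47% over the genome. All 4 were present in WT and absent from DKO, the direction taken by 3.3% of regions over the genome, while 0 went the opposite way, taken by 4.18%. This direction depended on the minimum score. With a minimum of 100, 6 of 69 window regions separated, against 8.73% over the genome, 5 present in DKO alone and 1 in WT alone. With a minimum of 200, 2 of 31 separated, against 10.2% over the genome, 2 present in DKO alone and 0 in WT alone. Of the 4 regions that separated without a minimum score, 3 lay at Tet2, which is 9.38% of its 32 regions, and 1 at Tet3.

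The Tet2 regions lost in DKO were chr3:133187223-133188454, chr3:133214755-133215360 and chr3:133217197-133217919. The first scored 59.3 and 57.7 in WT and was also called in the first Tet2KO library, with a score of 126. The second scored 70.2 and 68.6 in WT and was likewise called in the first Tet2KO library. The third was the one region of the 3 windows called in both WT libraries, with scores of 115 and 80.9, and in no knockout library, a pattern that 1.33% of regions over the genome showed. The reverse, a peak in all 4 knockout libraries and in neither WT library, was found at 0 window regions and at 1.3% of the genome's. The Tet3 region was chr6:83303040-83304184, with scores of 84.8 and 69.1 in WT and a peak in the second Tet2KO library. The WT scores of these 4 regions lay between 57.7 and 115, where the lowest deposited score was 50, and with a minimum score of 100 none of the 4 separated any longer. With peaks joined over gaps of 500 bp, 2 of 84 window regions separated, against 7.06% over the genome.

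Between Tet2KO and WT, 4 of the 121 regions separated (3.31%), against 6.68% over the genome. Of these, 3 were called in both Tet2KO libraries and neither WT library, the direction of 3.42% of regions over the genome, and lay at chr10:62266725-62267180 and chr10:62342956-62343488 in the Tet1 window and at chr6:83320344-83320994 in the Tet3 window. The other was the Tet2 region at chr3:133217197-133217919 named above, in the direction of 3.27% of regions. The 3 gained regions scored between 57.0 and 81.4. Between DKO and Tet2KO, 3 regions (2.48%) separated, against 5.02% over the genome, and all 3 were called in Tet2KO and absent from DKO, the direction of 2.21%. The opposite direction, in which 0 window regions went, was taken by 2.81%. They were chr10:62266725-62267180 at Tet1, and chr6:83320344-83320994 and chr6:83307302-83307942 at Tet3. None of the regions that separated Tet2KO from WT or DKO still did with a minimum score of 100.

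Tet3 was also the locus with most 5mC. 5mC peaks covered 6.79% and 6.54% of its window in DKO, 6.39% in the lone Tet2KO library, and 5.95% and 6.68% in WT. The Tet1 window was covered to 2.56% and 2.37% in DKO, 2.999% in Tet2KO, and 2.79% and 2.21% in WT. The Tet2 window was covered to 1.49% and 2.14% in DKO, 2.40% in Tet2KO, and 2.17% and 1.89% in WT. Tet3 lay above both other windows in every library, and the Tet1 and Tet2 values came close to each other. Tet1 lay above Tet2 within each library, but the 2 loci's values overlapped over the 5 libraries together.

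The Tet3 window was covered by 5mC peaks more densely than 93.7% of 20403 bins of 100 kb in DKO, 92.8% in Tet2KO and 92.9% in WT. The Tet1 window exceeded 68.6% in DKO, 73.8% in Tet2KO and 69.1% in WT, and the Tet2 window 60.1% in DKO, 67.2% in Tet2KO and 62.8% in WT. In the limma test 0 windows were called between DKO and WT, and the difference, DKO minus WT, was -0.0388 points at Tet1 (limma adjusted p = 0.99978), -0.215 points at Tet2 (limma adjusted p = 0.974) and 0.348 points at Tet3 (limma adjusted p = 0.979). The groups overlapped at all 3 loci.

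The densest 5mC of Tet3 lay before the long 5hmC stretch, although its densest bin, chr6:83310001-83320000, was also rich in 5hmC. 5mC peaks covered between 10.7% and 29.0% of each of the 3 bins between 83300001 and 83330000 in every library, and at most 14.1% of any later bin of the window. The 2 bins between 83370001 and 83390000 held no 5mC peak in any library, while 5hmC peaks covered 25.96% to 70.6% of them. A wide 5mC region found in all 5 libraries was chr6:83317773-83318718, whose peaks scored 778 and 617 in DKO, 781 in Tet2KO, and 877 and 706 in WT. It overlaps the highest-scoring 5hmC peak of its bin described above. The widest 5mC region was chr6:83353638-83354729, at 1092 bp, of which 972 and 1017 bp were covered in DKO, 366 bp in Tet2KO, and 1022 and 568 bp in WT.

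At Tet1 the widest 5mC region, chr10:62275129-62276205, was also its strongest, with scores of 497 and 606 in DKO, 688 in Tet2KO, and 449 and 672 in WT. At Tet2 the widest was chr3:133219617-133220248, at 632 bp, with scores of 262 and 150 in DKO, 308 in Tet2KO, and 235 and 203 in WT. Both recurred in all 5 libraries. DKO and WT overlapped in score at both regions, and the lone Tet2KO library scored highest at both. Of the merged 5mC regions, 5 of 14 at Tet1, 4 of 10 at Tet2 and 15 of 32 at Tet3 (46.9%) had a peak in all 5 libraries, against 32.3% of 218122 over the genome. Those called in a single library were 3 at Tet1 (21.4%), 3 at Tet2 (30%) and 7 at Tet3 (21.9%), against 30.4% over the genome.

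The marks coincided most often at Tet3. Of its 32 5mC regions, 24 (75%) overlapped a 5hmC region, against 6 of 14 (42.9%) at Tet1, 5 of 10 (50%) at Tet2 and 32.4% over the genome. In the other direction 19 of 53 Tet3 5hmC regions (35.8%) overlapped a 5mC region, against 6 of 36 (16.7%) at Tet1, 5 of 32 (15.6%) at Tet2 and 29.3% over the genome. Among 5hmC regions found in all 6 libraries Tet3 was not above the genome, at 12 of 29 (41.4%) against 42.9%, with 4 of 11 (36.4%) at Tet1 and 1 of 6 (16.7%) at Tet2. Among 5mC regions found in all 5 libraries it was, with 12 of 15 (80%) on a 5hmC region against 39.6%. The Tet3 window is the more fully covered with 5hmC peaks, and no test of these shares was made.

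Between DKO and WT, 3 of the 56 5mC regions of the windows separated (5.36%), against 4.9% over the genome. The clearest lay at Tet2, chr3:133132209-133132680, which was called with scores of 323 and 279 in WT and 272 in the Tet2KO library and had no peak in either DKO library. Absence from both DKO libraries and presence in both WT libraries was the state of 2.37% of 5mC regions over the genome. Of the separating regions named here, in either mark, it was the one that still separated its genotypes with a minimum score of 200. The Tet3 region chr6:83333637-83333941 was likewise absent from DKO, and scored 73.6 in Tet2KO and 54.4 and 55.0 in WT. At Tet1, chr10:62375397-62375900 was called in DKO, with scores of 85.5 and 59.3, and in Tet2KO, with a score of 70.3, but not in WT, and 2.53% of regions over the genome were present in both DKO and absent from both WT libraries. It was the one window region called in all 3 knockout 5mC libraries and neither WT library (1.18% of the genome's), and 0 were called in both WT libraries alone (1.28%). The 5mC bins with the lowest p were chr10:62370001-62380000 (2.99 points higher in DKO, limma adjusted p = 0.585) and chr6:83330001-83340000 (-4.15 points in DKO, limma adjusted p = 0.585). These bins hold the separating Tet1 and Tet3 regions just named, so the bins and regions are not separate observations. Of the 23 window bins tested for 5mC, 4 (17.4%) had an unadjusted limma p under 0.05, against 6.8% of 90130 bins of the genome, and 0 were called (0%).

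Stretches without knockout peaks were looked for only as a check of the deletions, because deleted DNA gives no reads. At Tet1, no stretch free of peaks in all 4 DKO lists of both marks held whole peaks in both WT lists of a mark. The longest Tet1 stretch without a DKO peak was 10163 bp (62365234 to 62375396), shorter than the 14865 bp that the 4 WT lists left free. At Tet2, 1 stretch free of peaks in all 7 knockout lists held 5hmC peaks of both WT libraries, chr3:133215361-133219609, at 4249 bp, and it contains the WT region at 133217197 named above. The longest Tet2 stretch free of knockout peaks was 22944 bp (133152826 to 133175769), against 17974 bp in the 4 WT lists. The same search at Tet3, which neither knockout targets, also found 1 stretch, of 2199 bp (chr6:83369099-83371297). The Tet3 stretch held 1 peak of each WT library at different places, with scores of 52.9 and 52.4, while the Tet2 stretch held a site shared by both. In the 4 DKO lists alone, 3 stretches at Tet2 held whole peaks of both WT lists of a mark, the longest being 10710 bp (chr3:133131436-133142145, 5mC), against 1 at Tet3. This longest stretch was not empty in both knockouts. It contains the 5mC region chr3:133132209-133132680 named above, which scored 272 in the Tet2KO library. With the 2 DKO lists of 5hmC alone the order of the loci was reversed, with 7 such stretches at Tet3, 4 at Tet2 and 2 at Tet1. The 4 knockout 5hmC lists left 4 at Tet3, 3 at Tet2 and 2 at Tet1. Such counts therefore did not set Tet2 apart from Tet3, and no share over the genome was computed for them. The Tet1 lists did not mark out a deleted part.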

How the data were processed

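Of the 28 samples, the 11 with peak lists (6 of 5hmC, 5 of 5mC) were used, and the 17 RNA-seq samples were not analysed here. Per the submitters' processing notes, Bowtie 0.12.9, TopHat2 2.0.8, Cuffdiff 2.2.1, CASAVA 1.4, MACS 1.4.2 and mm9 were used, with no role given. The authors deposited 1 headerless list per library, with positions and a score. The deposited score started at 50 and has the form in which MACS writes p-values, -10 times their log10, by which 50 would be 1e-05. No source used here gives a control library, duplicate removal or depth, and depth can change the number and width of peaks.

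Groups and replicate numbers came from sample titles. The 5mC Tet2KO title carries the number 2 while its list's name carries 1, and the title was followed. The members, lists and named regions were chosen with earlier results of these data known. Positions are 1-based. Peaks touching a window were clipped to it for coverage. Peaks overlapping by at least 1 bp were merged over an assay's libraries. Covered fractions of the windows beside 100 kb bins, and of 10 kb bins, were kept where at least 2 libraries had a peak and fitted with limma 3.58.1 in R 4.3.3 (trend, all libraries of an assay, no block), with Benjamini-Hochberg adjustment at 0.05. The scripts were tested on simulated data. Python 3.11.15 did the rest. Named were the 3 genes, each window's widest region, the widest regions present in all libraries (up to 5 per window, or the widest 3), every separating region, and per window and comparison the bin of lowest p. Regions and bins of that rule not given by position are in the counts. Other genes of the pathway were not tested, since no mm9 annotation was used. Alternatives were a minimum score of 100 or 200, equal numbers of top peaks, each library left out, replicate number as a block, no arcsine transform, other bin filters and sizes (5 and 20 kb), only the libraries compared, shifted window edges, a region counted only where mostly covered, and joining peaks up to 500 bp apart.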

Additional observations from a re-analysis of the deposited data

How the results depend on the processing

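Over 46 results, 596 values were computed under alternatives, and the counts of called windows stayed at 0 in all. Limits are 2 libraries a group, unknown depth, and scores whose scale may differ between libraries. With a minimum score of 100, 5hmC differences turned round at Tet1 (-0.0600 points DKO minus Tet2KO, 1.52 Tet2KO minus WT), Tet2 (1.45 Tet2KO minus WT) and Tet3 (0.685 DKO minus WT), as did 5mC at Tet3 (-0.0375 DKO minus WT) and the 5hmC bins DKO minus WT at Tet1 62250001 (-0.975) and Tet2 133140001 (1.85; main -5.39). With a minimum of 200 the values were -0.712 (Tet1, DKO minus Tet2KO), 0.897 (Tet1, Tet2KO minus WT), 0.324 (Tet3, DKO minus WT) and -0.125 (5mC, Tet3). At 200, 1 of 15 window bins tested was called between DKO and WT against 0 in the main test, beside 966 of 22455 bins of the genome against 0. Over the genome 773 were called between Tet2KO and WT and 533 between DKO and Tet2KO. Of 31 window 5hmC regions at 200, 2 separated DKO and WT (10.2% over the genome), 2 Tet2KO and WT (7.68%) and 0 DKO and Tet2KO (5.25%). With peaks joined over 500 bp, 2 of 84 separated DKO and WT (7.06% over the genome). Where peaks had to cover most of a region, 7 of 121 separated Tet2KO and WT (7.99% over the genome). The Tet1 difference DKO minus WT was -0.329 points in shortened and -0.0844 in lengthened windows, and in 5mC 0.122 with equal numbers of peaks. The cause of these changes was not tested.

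Leaving out 1 library, the 5hmC differences ranged over 0.322 to 1.04 (Tet1), -3.28 to 2.90 (Tet2) and 1.02 to 4.15 points (Tet3) for DKO minus Tet2KO, over -0.504 to 0.865, -3.36 to -1.16 and -3.46 to -0.322 for DKO minus WT, and over -1.18 to 0.186, -5.16 to 1.02 and -4.59 to -4.35 for Tet2KO minus WT. In 5mC DKO minus WT ranged over -0.330 to 0.252, -0.538 to 0.108 and -0.0175 to 0.713. Separating regions numbered 3 to 21 (DKO and Tet2KO), 4 to 22 (DKO and WT), 4 to 23 (Tet2KO and WT) and 3 to 10 (5mC), since a single library is easier to separate. In the same order the highest 5hmC counts were 21 of 121 regions (19.6% over the genome), 22 of 117 (18.3%) and 23 of 117 (16.3%). In 5mC the highest was 10 of 54, against 17.6% over the genome without the second DKO library and 15.9% without the second WT library. Same-numbered libraries did not deviate together (correlations 0.038, 0.041 and -0.014 in 5hmC, -0.056 in 5mC), so the numbers were not taken to pair them. With replicate number as a block, 0 windows and 0 bins were called, and rows of the window test at an unadjusted limma p under 0.05 numbered 1728 (Tet2KO and WT), 1041 (DKO and WT), 1083 (DKO and Tet2KO) and 727 (5mC). The filter on mean fraction left no value for 5mC at Tet1 and Tet2.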
